A study of Mus musculus with 6 samples.

Results

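The genes described here encode the machinery that makes ribosomes: the subunits of RNA polymerase I and the nucleolar proteins that cut, modify and assemble ribosomal RNA. Members were all genes on the array whose symbols begin with Utp, Nop or Rrp and a digit, the genes Polr1a to Polr1f, and 16 further nucleolar genes, namely Gnl3, Gnl3l, Gnl2, Mdn1, Fbl, Ncl, Npm1, Dkc1, Nolc1, Bop1, Pes1, Wdr12, Wdr43, Rrs1, Nol6 and Nol10. This rule found 48 genes among the 25206 probe sets of the array, each with 1 probe set. Polr1f was not among the symbols found, so RNA polymerase I is represented by Polr1a to Polr1e.

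Single-colour arrays read the RNA of macrophages derived from mouse bone marrow, in 2 groups. In 1 group, 3 samples had been kept with the Hsp70 inhibitor JG-98 for 16 hours, and in the other, 3 samples were left untreated as controls. The dose is labelled as 0.3 micromole with no volume, and neither a vehicle nor the strain and age of the mice is named. The comparison asks how blocking Hsp70, a family of chaperones that bind unfolded protein, alters macrophage gene expression.

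Ribosome assembly begins in the nucleolus, where RNA polymerase I transcribes the long precursor of the ribosomal RNAs. The small-subunit processome, a large particle built around the U3 snoRNA, folds and cuts the part that becomes the small subunit, while box C/D and H/ACA snoRNPs methylate and pseudouridylate the RNA. Other factors assemble the large subunit, and many of these genes are known targets of the transcription factor MYC, whose family binds the E-box sequence CACGTG.

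The promoters of 5 members are shown because E-boxes are a known point of control of this gene class and because these members were among those with the larger differences described below. Each run covers 120 bases before the annotated start and 25 bases from it, read 5′ to 3′ along the gene's strand, from RefSeq on GRCm38.p6. Capitals mark CACGTG, which reads the same on both strands. The first 4 hold it in these windows and Gnl3, shown for contrast, does not. These 5 were chosen after the values were seen, and their mix is not that of the members with the larger differences.
Utp4, chr8:106893520-106893664, + strand: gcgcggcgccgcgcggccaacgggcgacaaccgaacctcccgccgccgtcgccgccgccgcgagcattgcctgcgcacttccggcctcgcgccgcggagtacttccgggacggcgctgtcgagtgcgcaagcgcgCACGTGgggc
Wdr43, chr17:71616095-71616239, + strand: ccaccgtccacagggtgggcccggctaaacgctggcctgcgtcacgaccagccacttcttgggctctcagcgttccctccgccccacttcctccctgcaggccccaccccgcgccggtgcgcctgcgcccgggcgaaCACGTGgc
Nop2, chr6:125131763-125131907, + strand: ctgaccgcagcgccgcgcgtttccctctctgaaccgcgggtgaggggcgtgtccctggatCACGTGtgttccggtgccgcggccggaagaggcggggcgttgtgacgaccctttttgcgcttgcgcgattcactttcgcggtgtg
Utp18, chr11:93885742-93885886, - strand: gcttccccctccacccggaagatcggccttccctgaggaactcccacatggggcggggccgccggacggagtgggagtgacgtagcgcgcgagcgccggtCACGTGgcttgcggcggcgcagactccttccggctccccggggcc
Gnl3, chr14:31019107-31019251, - strand: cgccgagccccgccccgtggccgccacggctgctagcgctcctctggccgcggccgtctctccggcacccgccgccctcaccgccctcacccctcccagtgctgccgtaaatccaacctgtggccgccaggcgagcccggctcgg

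RefSeq promoter windows of 300 bases, 250 before the start and 50 after it, were found for 36 of the 48 members. CACGTG stood in a window of 10 of these 36 genes, which is 27.8%. It stood in a window of 9.19% of the 17452 array genes with one, and of 12.7% of the 6265 of those with a mean level above 6. Of the 12 members with a window and an unadjusted limma p under 0.05, described below, 5 held CACGTG. Gnl3, Polr1a and Dkc1 were among those that did not. In Nop2 the motif began 60 bases before the start, and in Utp18 20 bases before it. In Utp4 and Wdr43 it began 15 and 17 bases after the start, and in Mdn1 38 bases after it, beyond the stretch shown for the other genes. A match describes these letters only, and windows without it, such as that of Gnl3, say nothing of a factor's binding.

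Values are log2 expression, so a difference of 1 is a doubling, and each difference is JG-98 minus control with its standard error from limma (n = 3 per group). Array medians lay between 4.08 and 4.24, the highest being that of JG-98 replicate 3. This array also had the smallest standard deviation across probe sets, 2.389 against 2.434 to 2.473. The closest array to JG-98 replicate 3 reached a correlation of 0.994 with it across probe sets, while for each of the other 5 arrays the closest reached 0.996. The mean levels of 14 macrophage markers lay between 8.36 and 12.03, while the lists of neutrophil, dendritic, B cell, T and NK cell, and stromal markers had median levels of 2.61 to 3.42. In these lists, Mmp8 (6.25 with JG-98, 7.02 in controls) and Il7r (9.58 with JG-98, 9.16 in controls) stood above 5. No detection call was used, so a low level cannot be told from background.

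No member passed limma's test at an adjusted p under 0.05 over all 25206 probe sets, where 10 probe sets, or 0.0397%, passed. The smallest adjusted p among members was 0.181, for Utp4. As a group, the members nevertheless lay mostly above 0: 38 of 48 had a higher mean with JG-98, against 50.3% of all probe sets and 46.6% of those with a mean level above 6. At an unadjusted p under 0.05, 14 members were higher, or 29.2%, against 3.84% of all probe sets and 5.75% of the 8064 above level 6. None was lower at that threshold, against 4.48% of all probe sets and 7.68% of those above level 6. The median member differed by 0.12 on the log2 scale, the median of all probe sets by 0.001, and the median of probe sets above level 6 by -0.010. Differences ran from -0.09 for Utp3 to 0.45 for Gnl3, so the highest member was 1.36-fold higher. In bulk RNA, a change in the number of cells of a type and a change in RNA per cell cannot be told apart.

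**Figure D1:**
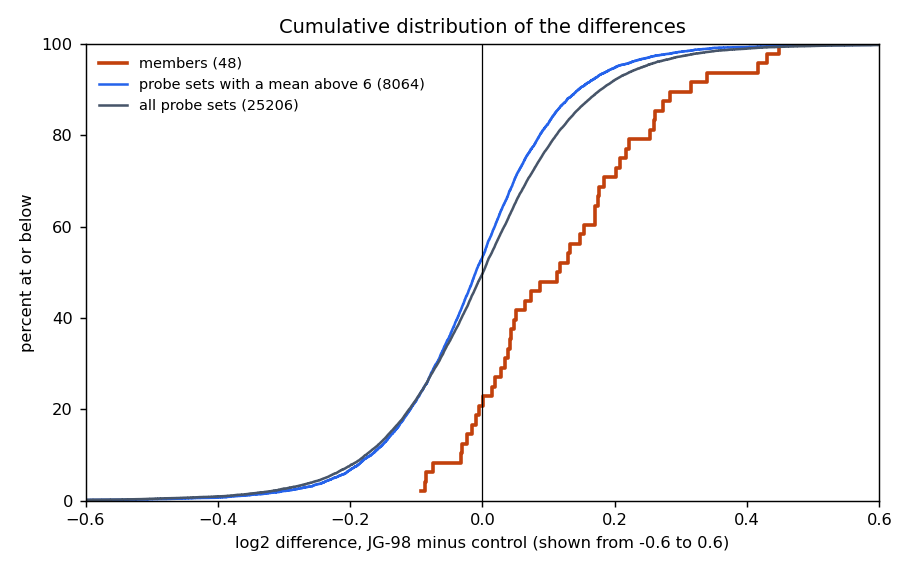
Cumulative percent of genes (vertical axis) at or below each log2 difference, JG-98 minus control (horizontal axis), for the 48 members, the 8064 probe sets with a mean above 6 and all 25206 probe sets. The member curve lies to the right, with a median of 0.12 against -0.010 and 0.001.

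In 16 members all 3 JG-98 values lay above all 3 control values, where 7.12% of all probe sets and 12.7% of those above level 6 did so. In 1 member, Utp3, all JG-98 values lay below, against 8.44% of all probe sets and 16.7% of those above level 6. Relative to each gene's control mean, the median member stood at 0.14, 0.11 and 0.06 on JG-98 replicates 1, 2 and 3, and at 0.05, -0.05 and 0.01 on control replicates 1, 2 and 3. By this measure JG-98 replicate 3 was close to control replicate 1. On the same scale, however, the median probe set above level 6 stood at -0.046 on JG-98 replicate 3, its lowest array. On control replicate 1 it stood at 0.016. Over all probe sets, by contrast, the median stood at 0.027 on JG-98 replicate 3, its highest array. What set the low standing of the members on JG-98 replicate 3 was not tested. Control replicate 2 was the lowest array for 24 of the 48 members.

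The shift was smaller without that control array. Without control replicate 2 the median difference was 0.055 and 8 members were higher at an unadjusted p under 0.05, where 3.06% of all probe sets were. Without JG-98 replicate 1 the median was 0.075 and 9 members were higher, where 3.32% of all probe sets were. Without any other single array the median was 0.11 to 0.13 with 10 to 14 members higher, where 3.07% to 5.05% of all probe sets were. Without JG-98 replicate 3, 28 members had both JG-98 values above all controls, where 13.7% of all probe sets did so. After median centring of the arrays the count of 14 was 7, against 2.33% of all probe sets, at a median of 0.096. The 8 members Utp4, Gnl3, Nop2, Polr1a, Rrp1b, Wdr43, Dkc1 and Mdn1 were higher at an unadjusted p under 0.05 with all arrays and also without any one of the 6. The same held for 356 probe sets, which is 1.41% of all, and for 2.46% of those above level 6. After median centring Rrp1b and Mdn1 had an unadjusted limma p of 0.063 and 0.0654.

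**Figure D2:**
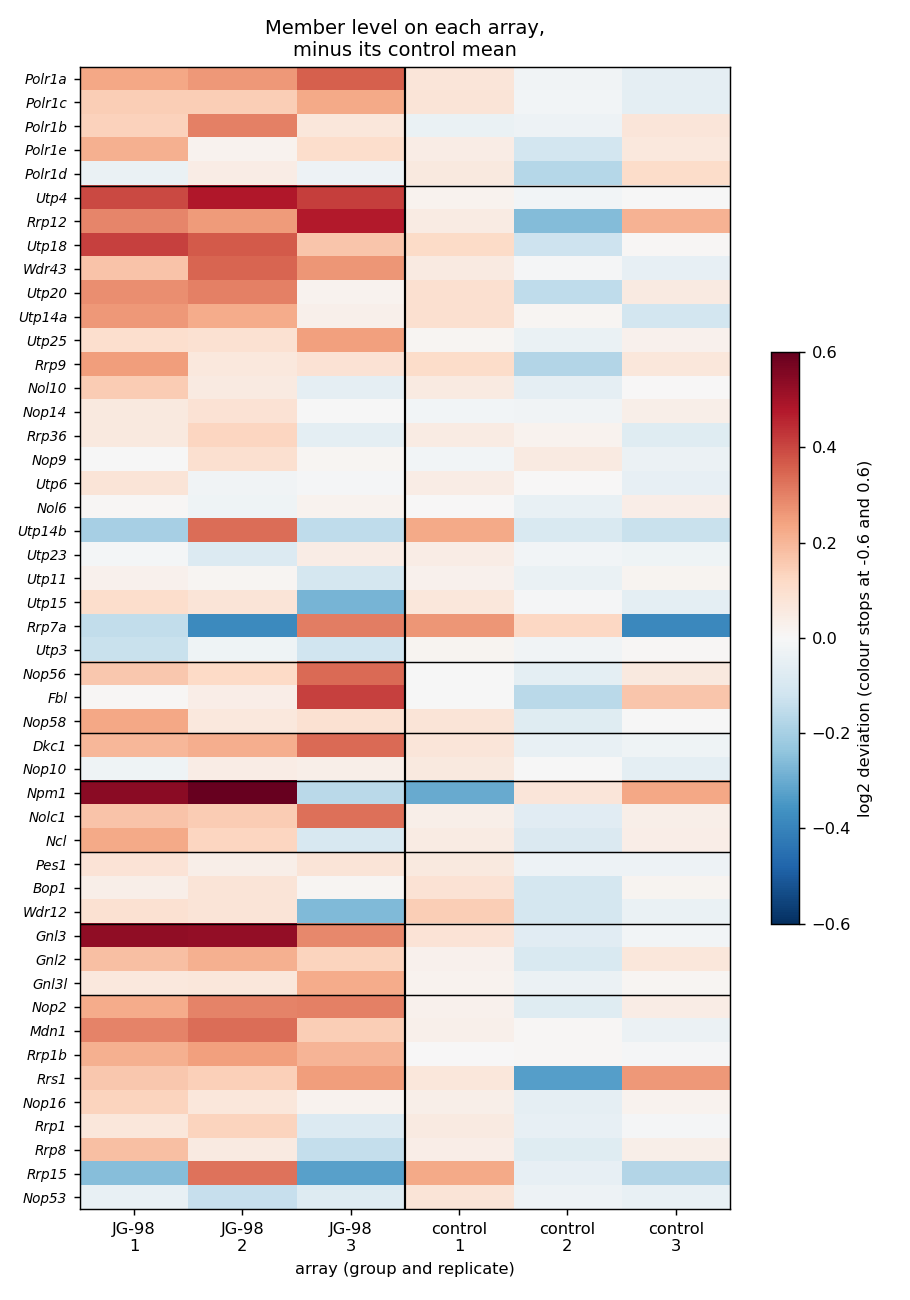
Level of each member on each array minus its control mean, in log2 units by colour, with JG-98 arrays at left, control arrays at right, and lines between roles. Utp4 is warm on all 3 JG-98 arrays, Gnl3 and Utp18 are paler on JG-98 replicate 3, and Npm1 is warm on replicates 1 and 2 and cool on replicate 3.

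Of the RNA polymerase I genes, 2 of 5 were higher at an unadjusted p under 0.05, where 3.84% of all probe sets were. The median difference over the 5 was 0.169. Polr1a, the largest subunit, which forms the active site with Polr1b, had 6.90, 6.92 and 7.02 in JG-98 samples, against 6.74, 6.64 and 6.61 in controls, so the groups did not overlap. It differed by 0.28 ± 0.071, or 1.22-fold (limma adjusted p = 0.387). Polr1c, a subunit shared with RNA polymerase III, had 6.90, 6.90 and 6.98 in JG-98 samples, against 6.83, 6.74 and 6.69 in controls, a difference of 0.17 ± 0.069 (limma adjusted p = 0.578). These groups did not overlap either, though the gap between them was narrow.

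The other subunits overlapped between groups. Polr1b, the second-largest subunit, had 6.08, 6.24 and 6.01 in JG-98 samples, against 5.90, 5.91 and 6.01 in controls, a difference of 0.17 ± 0.084. Polr1e, a subunit found in RNA polymerase I alone, had 5.37, 5.18 and 5.26 in JG-98 samples, against 5.20, 5.04 and 5.22 in controls, a difference of 0.11 ± 0.084. In both genes at least 1 JG-98 value lay within the control range. Polr1d, the partner of Polr1c in both polymerases, had 7.06, 7.14 and 7.07 in JG-98 samples, against 7.16, 6.93 and 7.21 in controls. Its difference was -0.01 with a 95% interval of -0.23 to 0.21, and its sign changed with the scaling.

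**Figure D3:**
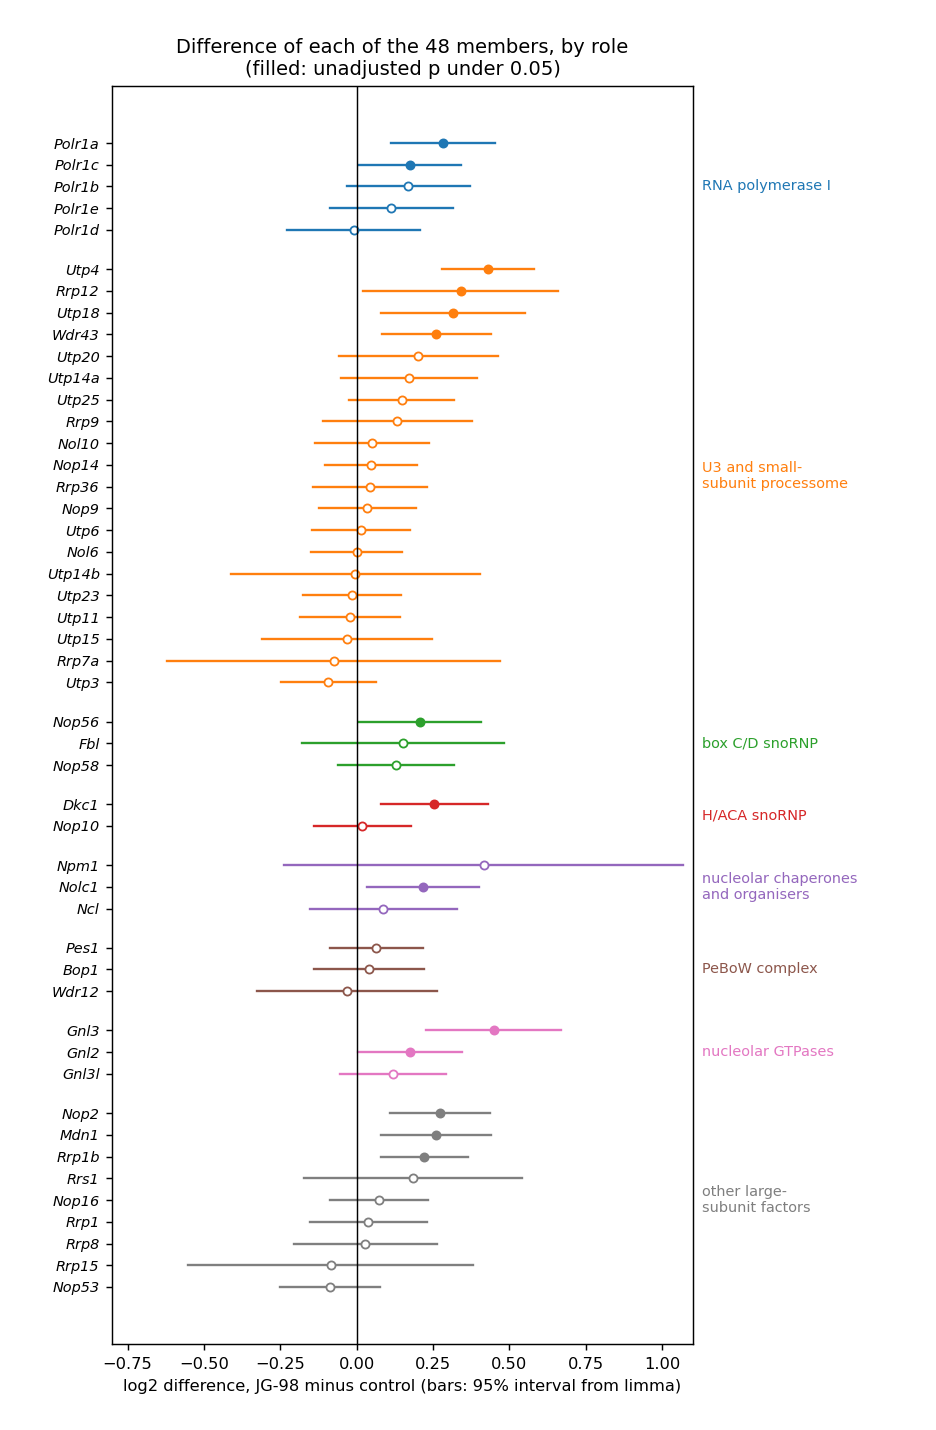
Log2 difference, JG-98 minus control, of each of the 48 members with its 95% interval from limma, grouped by role and ordered within it; filled points have an unadjusted p under 0.05. Of the 14 filled points, 4 belong to the 20 small-subunit processome genes and 2 to RNA polymerase I.

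Values in the small-subunit processome were mixed. Of its 20 members, 14 had a difference above 0, and the median difference was 0.045. At an unadjusted p under 0.05, 4 (20%) were higher and none lower, where 3.84% of all probe sets were higher. Utp4, which in yeast belongs to the first subcomplex to join the nascent RNA, had the smallest p of all members. It had 7.95, 8.04 and 7.97 in JG-98 samples, against 7.58, 7.54 and 7.56 in controls, so the gap between groups was wider than the spread within either. Its difference was 0.43 ± 0.062, or 1.35-fold (limma adjusted p = 0.181), with a 95% interval of 0.28 to 0.58.

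Partners of Utp4 in that subcomplex did not all show the same difference. Wdr43, the mammalian counterpart of yeast Utp5, had 7.61, 7.79 and 7.70 in JG-98 samples, against 7.49, 7.43 and 7.39 in controls, a difference of 0.26 ± 0.075 (limma adjusted p = 0.438). Utp15, of the same subcomplex, differed by -0.03 ± 0.12 with overlapping groups. A similar unevenness stood in a second subcomplex of the processome, to which Utp18 and Utp6 belong. Utp18 had 7.28, 7.23 and 7.03 in JG-98 samples, against 6.98, 6.74 and 6.87 in controls, a difference of 0.32 ± 0.099 (limma adjusted p = 0.482). Its JG-98 replicate 3 lay close to control replicate 1. Utp6 differed by 0.02 ± 0.067.

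Rrp12, which in yeast helps to export and mature pre-ribosomal particles, had 5.95, 5.91 and 6.13 in JG-98 samples, against 5.71, 5.40 and 5.87 in controls. Its difference of 0.34 ± 0.13 (limma adjusted p = 0.574) held a wide control spread, set by the low control replicate 2, and was 0.21 without that array. Utp25 differed by 0.15 ± 0.072 with no overlap, and Utp20 and Utp14a, whose groups overlapped, by 0.20 ± 0.11 and 0.17 ± 0.093. Utp14b, an autosomal retrocopy of Utp14a used in the male germ line, is close enough in sequence that the probe sets may share targets, and it differed by -0.005 ± 0.17.

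Utp3 was the only member with non-overlapping lower values. It had 6.53, 6.64 and 6.55 in JG-98 samples, against 6.68, 6.64 and 6.67 in controls, a difference of -0.09 ± 0.065 (limma adjusted p = 0.768). Its highest JG-98 value and its lowest control value agreed to the second decimal. The remaining processome members, namely Rrp9, Nol10, Nop14, Rrp36, Nop9, Nol6, Utp23, Utp11 and Rrp7a, differed by -0.07 to 0.13 with overlapping groups. Among them Nol6, a core processome protein, differed by 0.0001 with a 95% interval of -0.15 to 0.15.

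All 5 snoRNP members had a difference above 0, as did 50.3% of all probe sets. Dkc1, the pseudouridine synthase of the H/ACA particle, had 6.73, 6.75 and 6.87 in JG-98 samples, against 6.60, 6.48 and 6.50 in controls. The groups did not overlap and differed by 0.25 ± 0.073 (limma adjusted p = 0.439). Nop10, a small partner of Dkc1, differed by 0.02 ± 0.067, and by -0.011 without control replicate 3. Nop56, a scaffold of the box C/D particle, had 9.03, 8.99 and 9.21 in JG-98 samples, against 8.87, 8.81 and 8.93 in controls, a difference of 0.21 ± 0.083 (limma adjusted p = 0.584).

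Fbl, the methyltransferase fibrillarin, had 6.76, 6.80 and 7.16 in JG-98 samples, against 6.75, 6.59 and 6.92 in controls. Only JG-98 replicate 3 stood above every control, and the difference of 0.15 ± 0.14 was 0.024 without it. Nop58, the paralogue of Nop56 in the same particle, differed by 0.13 ± 0.079 with overlapping groups.

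The abundant nucleolar proteins Npm1 and Ncl varied between JG-98 samples. Npm1, nucleophosmin, had 6.46, 6.78 and 5.75 in JG-98 samples, against 5.61, 5.98 and 6.14 in controls. JG-98 replicates 1 and 2 were above every control and replicate 3 was below 2 of them. The difference of 0.42 ± 0.27 (limma adjusted p = 0.752) was 0.705 without JG-98 replicate 3, and this gene has many pseudogenes whose transcripts can share probes. Ncl, nucleolin, had 8.75, 8.65 and 8.42 in JG-98 samples, against 8.57, 8.44 and 8.56 in controls, and differed by 0.09 ± 0.10. As with Npm1, JG-98 replicate 3 was the low sample of its group, here below all controls. Nolc1, a carrier of snoRNPs in the nucleolus, had 6.96, 6.94 and 7.11 in JG-98 samples, against 6.82, 6.72 and 6.82 in controls, a difference of 0.22 ± 0.077 (limma adjusted p = 0.524). Unlike Npm1 and Ncl, it was highest on JG-98 replicate 3 and did not overlap.

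**Figure D4:**
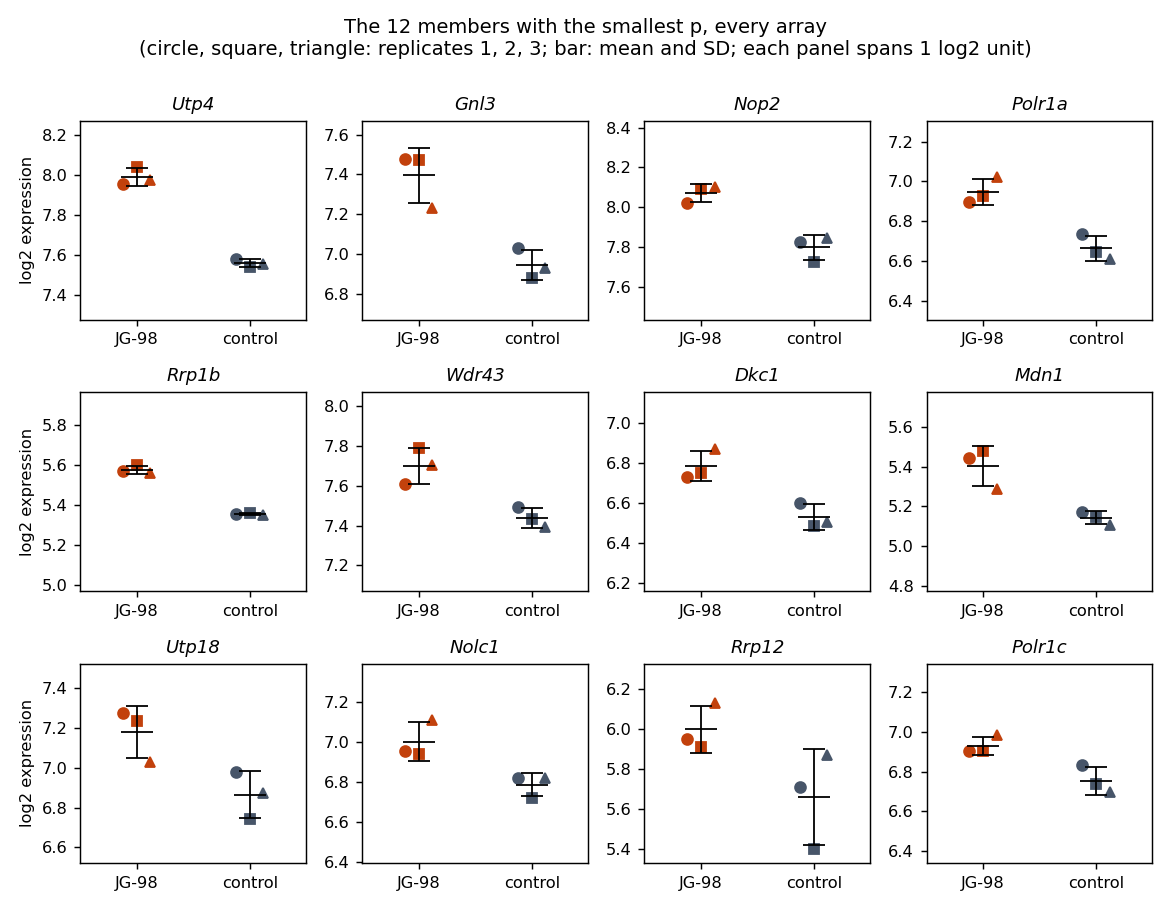
Log2 expression on every array of the 12 members with the smallest p, JG-98 at left and control at right in each panel, with mean and SD bars and 1 marker shape per replicate number. The groups overlap in none of the 12, which follows in large part from choosing them by p. Of all probe sets, 7.12% did not overlap upward. The gap is widest for Utp4 and narrow for Utp18, Rrp12 and Polr1c.

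Among the large-subunit factors, all 3 nucleolar GTPases had JG-98 values above every control. Of all probe sets 7.12% did so, and of those above level 6, where these 3 genes lie, 12.7%. Gnl3, nucleostemin, had 7.48, 7.47 and 7.23 in JG-98 samples, against 7.03, 6.88 and 6.93 in controls. It had the largest difference of any member, 0.45 ± 0.092 or 1.36-fold (limma adjusted p = 0.294). Gnl2 and Gnl3l, related GTPases of large-subunit assembly, differed by 0.18 ± 0.071 and 0.12 ± 0.073.

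Nop2, an rRNA cytosine methyltransferase, had 8.02, 8.09 and 8.10 in JG-98 samples, against 7.83, 7.72 and 7.85 in controls, a difference of 0.27 ± 0.068 (limma adjusted p = 0.380). Rrp1b, a nucleolar protein of the Rrp1 family, had 5.57, 5.60 and 5.56 in JG-98 samples, against 5.36, 5.36 and 5.35 in controls, a difference of 0.22 ± 0.059 (limma adjusted p = 0.413). Mdn1, the giant ATPase midasin that remodels pre-60S particles, had 5.44, 5.48 and 5.29 in JG-98 samples, against 5.17, 5.15 and 5.11 in controls, a difference of 0.26 ± 0.075 (limma adjusted p = 0.440). All of these were separated between groups, Rrp1b with the tightest replicates and Mdn1 with a lower JG-98 replicate 3.

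The PeBoW complex, which is needed to process the large-subunit rRNAs, had no member at an unadjusted p under 0.05. Of all probe sets, 3.84% were higher and 4.48% lower at that threshold, so a count of none among 3 genes says little of the complex. Its genes Pes1, Bop1 and Wdr12 differed by 0.06 ± 0.064, 0.04 ± 0.075 and -0.03 ± 0.12, with 95% intervals of -0.09 to 0.22, -0.14 to 0.22 and -0.32 to 0.26. Of the other large-subunit factors, Rrs1, Nop16, Rrp1 and Rrp8 differed by 0.03 to 0.18, and Nop53 and Rrp15 by -0.09, all with overlapping groups. Rrs1 lost most of its 0.18 without control replicate 2, when it was 0.019.

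Most of the assembly factors and exosome genes outside the rule also had a difference above 0, and their medians were not tested against that of the members. Of all probe sets, 50.3% had a difference above 0, 7.12% did not overlap upward and 3.84% were higher at an unadjusted p under 0.05. Above level 6 these shares were 46.6%, 12.7% and 5.75%. Of 39 other small-subunit factors, 31 had a difference above 0 and 13 (33.3%) did not overlap upward. At an unadjusted p under 0.05, 5 (12.8%) were higher and none lower, and the median was 0.063. The endonuclease Nob1, which makes the final cut of small-subunit rRNA, had 7.27, 7.35 and 7.33 in JG-98 samples, against 7.04, 7.02 and 7.14 in controls, a difference of 0.25 ± 0.068. Ltv1 and the kinase Riok2, both of late small-subunit precursors, differed by 0.30 ± 0.095 and 0.18 ± 0.061. None of these passed over all probe sets (limma adjusted p = 0.413, 0.487 and 0.521).

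Of 41 other large-subunit factors, 30 had a difference above 0, with a median of 0.070 and a lowest difference of -0.218. In 10 (24.4%) the groups did not overlap upward and in 1 downward, where 7.12% and 8.44% of all probe sets did so. At an unadjusted p under 0.05, 6 (14.6%) were higher and none lower. Noc2l and Nip7 differed by 0.24 ± 0.064 and 0.26 ± 0.070, and Tma16, whose values of 3.02 to 4.87 are near the dim end of the scale, by 0.85 ± 0.30. Of 14 genes of the nuclear RNA exosome, which trims rRNA precursors, 13 had a difference above 0 and 6 (42.9%) did not overlap upward. Their median was 0.113. Only 1 of them (7.14%), Exosc1, was at an unadjusted p under 0.05, near the 5.75% of probe sets above level 6. The 11 other snoRNP factors had a median of 0.018. Among them Nhp2, of the H/ACA particle, differed by 0.19 ± 0.072, and Pih1d1, which helps to assemble box C/D particles, by -0.24 ± 0.068, each without overlap. Without JG-98 replicate 3, the medians of these lists were 0.103, 0.112, 0.093 and 0.104 for the small-subunit, large-subunit, exosome and snoRNP lists. Their medians without each other array are not given here. Control replicate 2 was the lowest control array for the small-subunit, large-subunit and exosome lists, at -0.029, -0.043 and -0.030 from the control mean. The members' median, described above, was smaller without that array.

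The median over partners of RNA polymerase I took either sign, depending on the arrays used. Of 16 genes, among them initiation factors and the small subunits it shares with the other polymerases, 5 had a difference above 0. None was at an unadjusted p under 0.05, and the median was -0.030. Of all probe sets, 50.3% had a difference above 0, 3.84% were higher at that threshold and 4.48% lower. The median over the 16 genes of level minus control mean was 0.055, 0.009 and -0.149 on JG-98 replicates 1 to 3. On the same arrays the median probe set above level 6 stood at 0.007, 0.015 and -0.046. The median over all probe sets stood at -0.013, -0.018 and 0.027. The median difference of the RNA polymerase I partners was 0.030 without JG-98 replicate 3 and 0.027 with array weights. Ubtf, which opens ribosomal DNA for transcription, differed by 0.10 ± 0.069. The subunits of RNA polymerase II, 12 genes, had a median of -0.036, and those of RNA polymerase III, 9 genes, one of -0.008. The RNA polymerase III median was 0.041 without JG-98 replicate 3 and -0.058 over the 7 genes with a mean above 6. Of the RNA polymerase III subunits, Polr3b differed by -0.18 ± 0.066 without overlap. Of the 58 cytosolic ribosomal protein genes, 3 (5.17%) were higher and none lower at an unadjusted p under 0.05, where 3.84% of all probe sets were higher. Many of these genes have pseudogenes that can share probes, and the median over the 58 was 0.011. This median was -0.009 after median centring of the arrays and 0.042 with array weights. It was 0.072 over the 39 genes with a mean above 4 and 0.073 over the 18 above 6, and ran from -0.011 to 0.060 without single arrays.

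**Figure D5:**
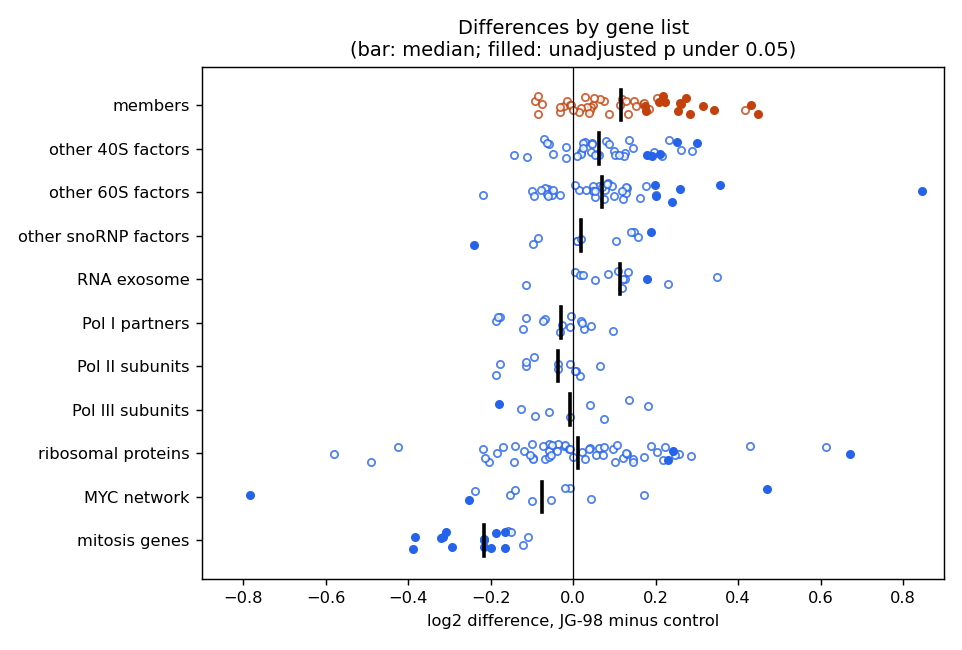
Log2 difference, JG-98 minus control, of every gene in each list, with the median as a bar and filled points at an unadjusted p under 0.05; some shared subunits stand in the lists of both RNA polymerase I partners and RNA polymerase II. Members have a median of 0.12, RNA polymerase I partners of -0.030 and mitosis genes of -0.22.

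The MYC network, which controls many ribosome biogenesis genes, held differences in both directions. Myc had 8.09, 8.14 and 8.26 in JG-98 samples, against 7.76, 7.57 and 7.75 in controls, a difference of 0.47 ± 0.085 (limma adjusted p = 0.258). Mxd4, which encodes an antagonist of MYC at E-boxes, had 7.034, 6.867 and 6.402 in JG-98 samples, against 7.598, 7.564 and 7.493 in controls, a difference of -0.78 ± 0.16 (limma adjusted p = 0.294). Mxd1, a second antagonist, differed by -0.25 ± 0.084 (limma adjusted p = 0.510). None of these passed over all probe sets. Their groups did not overlap, but they were named for having the smallest p of the list. Of the 12 genes of the network, 1 did not overlap upward and 3 downward, where 7.12% and 8.44% of all probe sets did so. At an unadjusted p under 0.05, 1 was higher and 2 lower, where 3.84% and 4.48% of all probe sets were. Over the 12 genes of the network the median was -0.077.

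Markers of dividing cells lay in the opposite direction to the members. All 17 measured mitosis genes had a difference below 0, 13 of them at an unadjusted p under 0.05. Of all probe sets, 4.48% were lower at that threshold, and 7.68% of those above level 6. The mean level of the mitosis genes was 8.68 to 8.79 in JG-98 samples and 8.96 to 8.98 in controls. Their part in the members' values was not tested. The 14 macrophage markers had a median difference of -0.069, with C1qa, Mertk and Mrc1 lower at an unadjusted p under 0.05, and their mean level was 10.38 to 10.46 in JG-98 samples and 10.49 to 10.52 in controls.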

How the data were processed

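The deposited table holds the authors' log2 values for every probe set. Per the submitters' processing notes, RMA, affy and R 2.15.1 were used, in roles that are not stated, and no genome build is named there. RMA in general makes arrays alike in distribution, which would hide a shift common to all genes.

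Probe sets carry Entrez gene numbers. The platform annotation gave 1 symbol for 23185 and none for 2021, and symbols were updated through a RefSeq table of GRCm38.p6; either naming gave the same 48 members. Members, lists and roles were chosen with earlier results of these data known. Differences were fitted with limma 3.58.1 in R 4.3.3 (lmFit, eBayes, two-sided) on all 25206 probe sets, with Benjamini-Hochberg adjustment and a threshold of 0.05. Whether replicates were separate mice or cultures is not labelled, and p-values then cover the variation among the 6 samples alone, possibly technical. The number of arrays limits the precision.

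Values on all arrays are given for the 12 members with the smallest p, the RNA polymerase I subunits, Fbl, Ncl, Npm1, Dkc1 and the lower member with the smallest p; Nop56 and genes named for a low level, for one array or for a motif were chosen after their values were seen. In other lists up to 3 genes with the smallest p, and Myc, are named. On simulated data for this comparison with 25206 probe sets, the fit called 0.4% of changes of 0.25 on the log2 scale, 14.2% of changes of 0.5 and 78.4% of changes of 1. The simulated variances did not depend on level, so these shares are not specific to the members. The median standard error was 0.078 over the members and 0.102 over all probe sets. Alternatives were median centring, quantile normalization, 2 filters on dim probe sets (mean above 4 or 6), a trend and a robust prior in eBayes, array weights (statmod 1.5.0), the replicate number as a block, platform symbols and leaving out each array.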

Additional observations from a re-analysis of the deposited data

How the results depend on the processing

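The members' median stayed above 0 and none was lower at an unadjusted p under 0.05 in each of the 15 alternatives. With filters on dim probe sets, which leave fewer tests, 1 member (Utp4) passed over all probe sets above a mean of 4, and 4 of 36 (Utp4, Gnl3, Nop2 and Polr1a) above 6. With an intensity trend 2 passed (Utp4 and Gnl3). Among the probe sets each filter kept, 59 were called above a mean of 4 (34 higher, 25 lower), or 0.451%. Above a mean of 6, 385 were called (175 higher, 210 lower), or 4.77%. Over all probe sets the trend called 254 (127 of each), or 1.01%. Array weights called 25 (17 higher, 8 lower), against 10 (8 higher, 2 lower), or 0.0397%, in the main fit. Median centring left 7 members higher at an unadjusted p under 0.05 in place of 14; the cause was not tested. Leaving out 1 array gave 0 to 5 calls over all probe sets, 0 members called, 8 to 14 members higher at an unadjusted p under 0.05 (3.06% to 5.05% of all probe sets), 16 to 28 without overlap upward (11.2% to 13.7% of all probe sets), and medians of 0.055 to 0.132.

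Over all settings 30 members stayed above 0, 2 (Utp3 and Nop53) stayed below and 16 took both signs or reached 0. Polr1d turned to 0.007 after quantile normalization, and without single arrays it ran from -0.094 to 0.045, being above 0 without JG-98 replicate 1 (0.006), JG-98 replicate 3 (0.002), control replicate 1 (0.021) or control replicate 3 (0.045). With the replicate number as a block, 0 probe sets and 0 members passed and 12 members were higher at an unadjusted p under 0.05, where 3.52% of all probe sets were. Deviations of same-numbered arrays correlated at 0.095, -0.126 and 0.104, and not every array correlated best with its own number, so the numbers were not taken to pair samples. Levels near background and the number of arrays limit what could be called.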

Other observations

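Split by the E-box, the 10 members with CACGTG in a promoter window had a median difference of 0.231 (range -0.075 to 0.430), and in 6 of them the groups did not overlap, with JG-98 higher. The 26 members with a window and no CACGTG had a median of 0.081 (range -0.093 to 0.449), and 7 of them did not overlap upward. At an unadjusted p under 0.05, 5 members with CACGTG and 7 without it were higher. Of all probe sets, 7.12% did not overlap upward and 3.84% were higher at that threshold. Above level 6 these shares were 12.7% and 5.75%. This split was made after the values were seen and was not tested, and 12 members had no window in the table used.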
